A study of Rattus norvegicus with 30 samples.

Results

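Transcript levels of the muscle atrophy ubiquitin ligases Fbxo32 (atrogin-1), Trim63 (MuRF1), Trim55 (MuRF2) and Trim54 (MuRF3), of the transcription factors Foxo1 and Foxo3, and of the secreted growth inhibitor Mstn (myostatin) were examined in the rat heart in both sexes at 3 ages. These 7 genes were taken by name from the tables of normalized values, which hold 23268 gene names at 8 weeks, 23227 at 21 weeks and 22458 at 78 weeks, and each had 1 row in every table. The hearts came from 30 untreated rats of the inbred F344 strain from a single breeding colony, all fed the NIH-31 diet: 5 females and 5 males that were young (8 weeks), 5 females and 5 males that were adult (21 weeks), and 5 females and 5 males that were old (78 weeks). Each whole heart was flash frozen and ground, and its total RNA was hybridized to an Agilent array in 1 color (Cy3), with 1 array per rat. No rat carried a transgene or received an agent, and no cell type was separated before RNA extraction.

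Muscle protein is removed largely by the ubiquitin-proteasome system, in which an E3 ligase chooses the protein that is to be tagged with ubiquitin. Fbxo32 is the substrate-binding part of an SCF ligase, and the MuRF proteins are RING-finger ligases that sit at the M-band, the Z-disc and the microtubules of striated muscle. FoxO proteins are transcription factors that insulin and IGF-1 signaling keeps out of the nucleus through Akt, and when they enter it they activate Fbxo32, Trim63 and genes of autophagy. Glucocorticoids, whose receptor is itself a transcription factor, also raise Trim63, and myostatin, a TGF-beta family ligand made mostly by skeletal muscle, acts through activin receptors and Smad proteins to limit muscle mass.

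The promoter of Trim63 is shown because both of these inputs have a sequence there. In RefSeq (build GRCr8) the 250 bases before the start of Trim63 lie on the plus strand at chr5:151816986-151817235, and the capitals below mark a glucocorticoid receptor type motif directly followed by a FoxO-type motif.
Trim63 promoter: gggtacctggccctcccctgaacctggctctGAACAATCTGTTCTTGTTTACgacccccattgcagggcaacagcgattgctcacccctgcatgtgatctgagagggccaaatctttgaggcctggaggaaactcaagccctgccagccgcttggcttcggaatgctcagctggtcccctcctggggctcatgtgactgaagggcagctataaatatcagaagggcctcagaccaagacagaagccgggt
The first match, to the half-site GAACA with its reverse complement TGTTC after 3 bases, covered bases 219 to 207 before the start, and the second, to TTGTTTAC, covered bases 206 to 199, so they touched without overlapping. Both strands were searched, and the letters were chosen after this promoter had been read. Of 33469 rat promoters of the same length, 14 (0.0418%) held the first motif, 317 (0.947%) held the second and 1 (0.00299%), that of Trim63 itself, held both. As the letters were chosen after it had been read, this last share supports nothing further. The promoters of Trim54 (chr6:30978476-30978725, minus strand) and Foxo1 (chr2:138462724-138462973, plus strand) held neither set of letters. A match is a description of letters and not a measured binding site. Promoter sequences were at hand for 3 of the 7 genes, and Fbxo32, Trim55, Foxo3 and Mstn were not among them.

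On the array, Trim63 and Trim55 were each read by 2 probes of 60 bases and the other genes by 1. Since later results turn on Trim63 and Trim54, a probe of each is shown, in the orientation of the array design.
Trim63 dimmer probe: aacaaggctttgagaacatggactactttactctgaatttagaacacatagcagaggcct
Trim54 probe: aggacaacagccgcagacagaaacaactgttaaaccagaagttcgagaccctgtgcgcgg
The array annotation (build rn3) placed this Trim63 probe at chr5:153079335-153079394 on the plus strand and the brighter Trim63 probe downstream, at chr5:153083526-153083585. The Trim54 probe was placed on the minus strand at chr6:25222636-25224823, a span of 2188 bases for 60 bases of probe, so that its sequence bridged introns. The probe of Fbxo32, on chromosome 7, also spanned more genome (11078 bases) than its own length, while the probes of Foxo1, Foxo3, Mstn and Trim55 lay in an unbroken stretch. The tables carry a single value per gene and rat, which for Trim63 and Trim55 was the mean of the log2 values of both probes.

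Several features of the arrays bear on every comparison. The 75th percentile of the processed signal over the non-control spots ranged from 39.9 to 171 over the 30 arrays. It ran from 98.0 to 171 at 8 weeks, 39.9 to 123 at 21 weeks and 83.5 to 124 at 78 weeks. Of 43379 such spots, 17182 to 24290 were well above background. Females and males of an age shared slides but lay at different array positions, so position and sex cannot be told apart. Rats of different ages were handled in different batches, so batch and age cannot be told apart in any comparison of ages given here. Only slide 6 held arrays of more than 1 age, with 1 female and 1 male each of 8 and 78 weeks. Values within that slide remove a difference between slides but not one between batches of animals or RNA, and levels at 21 weeks are given without a test against other ages. The 78-week array labeled female replicate 2 had Y-linked Eif2s3y at 1.47 and the array labeled male replicate 3 had it at -5.47 (log2 over the 75th percentile), against -5.85 to -5.08 on the other female and 0.99 to 1.75 on the other male arrays, so each went against its label. Results at 78 weeks are therefore given with all 10 arrays and, where they differ, without these 2. All 10 cardiomyocyte markers were well above background on all 30 arrays. Skeletal muscle markers had summed levels of 3.60 to 6.52 on 29 arrays but 30.5 on the array of the 21-week female replicate 2, where 14 of 15 were well above background and Myod1 was not. The p-values measure the spread between the rats of a group.

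Of the 7 genes, 5 could be followed in all 6 groups, since all 30 arrays measured Fbxo32, Trim63, Trim55, Trim54 and Foxo1 well above background. Foxo3 was well above background on 1 of 5 female and 3 of 5 male arrays at 8 weeks, 1 and 0 at 21 weeks, and 3 and 4 at 78 weeks, so no fold is given for it at 21 weeks. Mstn was not well above background on any of the 30 arrays, with normalized values of 0.0105 to 0.0465 of the 75th percentile, and no fold is given for it at any age. A heart level of myostatin transcript was thus not measurable on these arrays.

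Levels were next set side by side on 1 scale, the log2 scanner signal relative to the array's 75th percentile, which is not comparable between probes. Trim63 (brighter probe) averaged 4.02 ± 0.11 (SD, n = 10) in young, 4.05 ± 0.18 in adult and 3.72 ± 0.13 in old hearts, with the old hearts lowest and the other ages within their spread of each other. Trim54, the MuRF protein of microtubules and Z-discs, ran in a different order, at 5.36 ± 0.13, 6.12 ± 0.09 and 5.75 ± 0.26. Fbxo32 stood at -0.07 ± 0.20, -0.70 ± 0.44 and 0.18 ± 0.26, lowest in adult rats, whose arrays included those of weakest signal. Trim55 moved little, at 2.41 ± 0.08, 2.45 ± 0.17 and 2.30 ± 0.19, and the arrays of its 3 ages overlapped. Foxo1 was at -0.35 ± 0.12, -0.07 ± 0.45 and -0.37 ± 0.17, also overlapping at all ages.

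**Figure D1:**
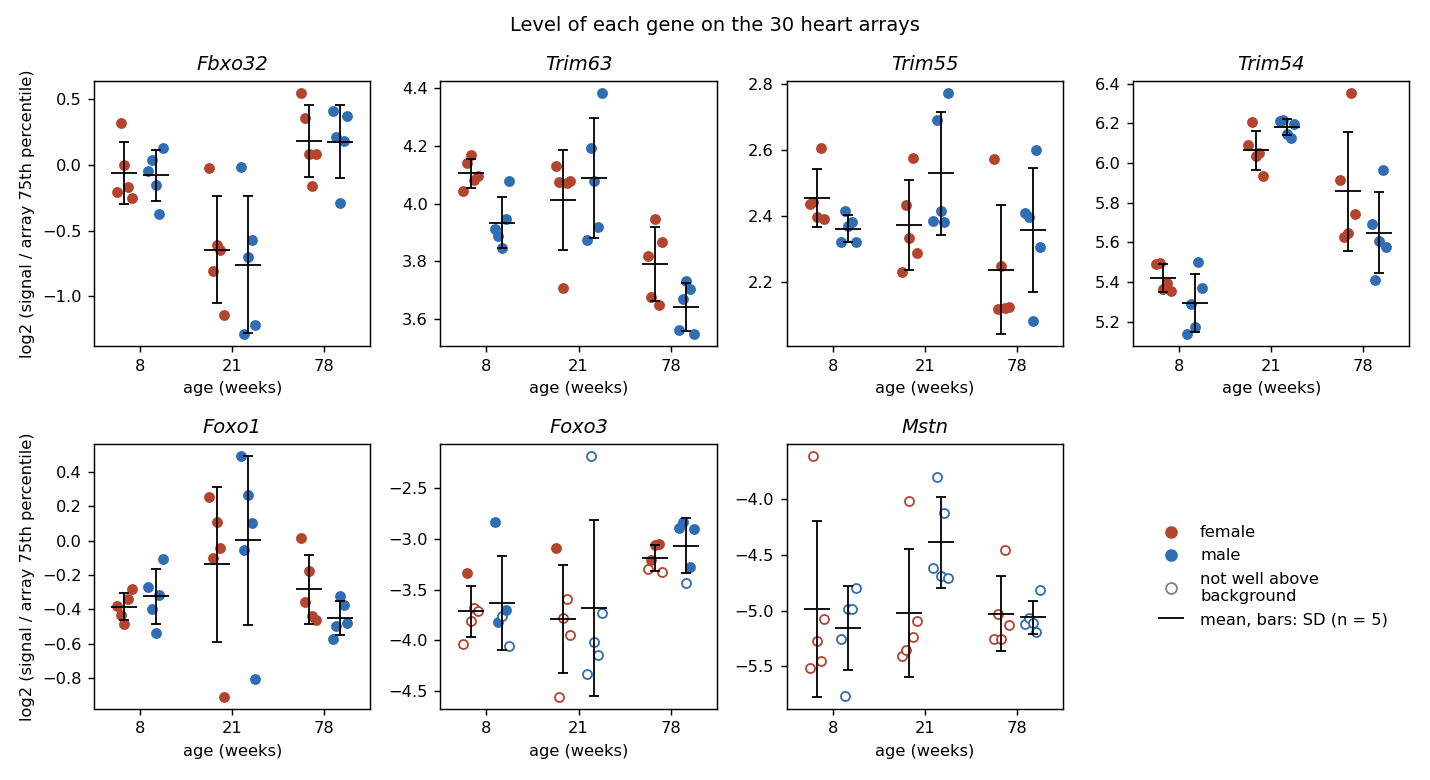
Level of each gene on the 30 arrays (y axis, the log2 scanner signal relative to the array's 75th percentile; x axis, age in weeks). Each point is 1 rat, females and males in different colors, and open points are not well above background. Trim63 is lowest and Trim54 intermediate at 78 weeks, Fbxo32 and Foxo1 are most spread at 21 weeks, and all points of Mstn are open.

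At 21 weeks the spread of Fbxo32 and Foxo1 was shared by rats of both sexes. The table listed Fbxo32 at 0.547, 0.321, 0.366, 0.363 and 0.253 in females and, in males, at 0.566, 0.233, 0.352, 0.388 and 0.236. On the scanner scale the female and male arrays of replicate 1 were highest, at -0.02 and -0.01. Foxo1 likewise ran from -0.91 on the array of female replicate 5 to 0.49 on that of male replicate 1. The SD of Fbxo32 and Foxo1 over the 10 adult arrays, 0.44 and 0.45, was larger than over the 10 young (0.20 and 0.12) or the 10 old ones (0.26 and 0.17). The 2 arrays of slide 3, female and male replicate 5, had Foxo1 at -0.91 and -0.81, against -0.10 to 0.49 on slides 1 and 2. Fbxo32 was at -1.14 and -1.22 on them and at -1.29 on male replicate 2 of slide 1. The adult arrays also included those of weakest signal (75th percentile 39.9 to 123). That percentile was 106 and 72.1 on the slide 3 arrays, and the weakest array, male replicate 2, had Foxo1 at -0.05. The parts of slide and signal strength in this spread were not tested. Over all 30 arrays, after the mean of each group was removed, Fbxo32 and Foxo1 had a Pearson r of 0.62, and over the 20 arrays of 8 and 78 weeks r was 0.12. These arrays share slides and scaling, and the value is given as a description.

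The first question was whether females and males of the same age differed. None of the 17 sex differences that could be measured for 6 genes passed limma's test with the Benjamini-Hochberg adjustment over all table rows (adjusted p from 0.482 to 0.998), and 1, Trim63 at 8 weeks, had an unadjusted p under 0.05. Over all rows 0.102% were called at 8 weeks, 0.0511% at 21 weeks and 0% at 78 weeks (9 rows, 0.0345%, without the 2 arrays at odds with their labels), and 5.74, 15.9 and 5.65% had an unadjusted p under 0.05. The test of the study's methods, an equal-variance comparison of both sexes row by row, called none of them either when its p-values were adjusted in the same way. The study itself took an unadjusted p under 0.05 as significant, and what its test gives at that threshold was not counted here. The differences were small, between -0.16 and 0.19 on the log2 scale, with a fold of at most 1.14.

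Trim63 came nearest to a sex difference. In young females its normalized values were 5.05, 5.04, 5.11, 5.14 and 5.14, and in young males 4.39, 4.20, 4.32, 4.82 and 4.78. Every female lay above every male, as in 0.558% of all rows, and the females were close together. The difference was 0.18 on the log2 scale (SE 0.06, fold 1.13), with p = 0.0079 in a two-sided exact permutation test, the smallest that 5 against 5 rats allow, and an adjusted p of 0.757 with limma. It was positive on each of the 3 slides (0.23, 0.16 and 0.11) and with either probe (0.16 with the brighter and 0.20 with the dimmer). The summed level of the 3 erythroid markers measured ran from 28.2 to 47.7 in these females and from 41.8 to 68.0 in these males, and its part in the result was not tested.

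In adult rats Trim63 showed no such order. Its values were 5.09, 4.93, 3.92, 4.92 and 4.65 in females and 5.03, 5.36, 5.00, 4.27 and 5.66 in males, and the groups overlapped. The difference was -0.11 (log2, limma adjusted p = 0.641), and it turned to 0.21 after normexp background correction. In old rats the values were 3.50, 3.20, 3.76, 3.46 and 3.71 in females and 3.11, 2.74, 3.35, 3.26 and 3.17 in males. Here 4 of 5 females lay above every male, and the exception was the array labeled female replicate 2. The share of all rows with such an order is not given here. The difference was 0.18 (SE 0.09, fold 1.13, exact permutation p = 0.0238, limma adjusted p = 0.856), positive on all 3 slides but -0.11 after normexp. At this age arrays of equal replicate number lay side by side on a slide and were correlated, so they were also taken as pairs. The array labeled female was higher in 5 of 5 pairs, by 0.17, 0.23, 0.17, 0.08 and 0.23. An exact sign-flip permutation test over the pairs gave p = 0.0625, the smallest that 5 pairs allow. By Eif2s3y, pair 2 lay wholly at the male level (1.47 and 1.51) and pair 3 at the female level (-5.61 and -5.47). These 2 pairs thus hold no contrast of the sexes by Y-linked level, though the test counts them by label. Without the 2 arrays at odds with their labels the difference was 0.24 (SE 0.11). Every one of 4 females then lay above every one of 4 males, as in 3.14% of all rows. An exact permutation test gave p = 0.0286, the least possible with 4 against 4, with a limma adjusted p of 0.612.

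Of the other MuRF ligases, Trim54 had no sex difference that was called. At 8 weeks it stood at 25.5, 25.7, 23.6, 24.1 and 23.4 in females and at 20.6, 22.4, 20.7, 25.9 and 23.5 in males (difference 0.12 on the log2 scale, limma adjusted p = 0.935). At 21 weeks females were at 37.8, 41.5, 36.6, 37.8 and 34.1 and males at 42.3, 42.3, 40.6, 40.3 and 40.3. There 4 of 5 females lay below every male, and the exception was replicate 2, whose array also held the skeletal muscle markers. The adult difference of -0.13 had an exact permutation p of 0.0317 and a limma adjusted p of 0.482, and it turned to 0.03 with quantile normalization and 0.39 after normexp. It is to be read against a median sex difference of all rows at this age of -0.14, so it was no larger than that of a typical row. The share of all rows with as few females out of order is not given here. At 78 weeks the values were 31.9, 26.6, 26.9, 42.7 and 28.9 in females and 27.8, 23.1, 26.2, 32.8 and 26.1 in males, overlapping, with a difference of 0.19 (limma adjusted p = 0.863) that was -0.15 after normexp. The array labeled female was higher in 5 of 5 pairs of equal replicate number, by 0.20, 0.21, 0.04, 0.38 and 0.15. An exact sign-flip permutation test again gave the smallest p that 5 pairs allow (0.0625). The pairs at 0.21 and 0.04 hold no contrast of the sexes by Y-linked level, though the test counts them by label. With the 2 arrays at odds with their labels left out, the difference was 0.24 (SE 0.18). Its exact permutation p was then 0.257 and its limma adjusted p 0.753.

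Trim55 ran between 0.98 and 1.75 over all 30 hearts. Its values at 8 weeks were 1.37, 1.45, 1.42, 1.62 and 1.53 in females and 1.54, 1.45, 1.35, 1.34 and 1.39 in males, and at 78 weeks 1.75, 1.32, 1.23, 0.98 and 1.19 against 1.56, 1.43, 1.01, 1.28 and 1.27. The sexes overlapped at every age, with differences of 0.07, -0.15 and -0.03 on the log2 scale. Without the 2 arrays at odds with their labels the 78-week difference was -0.13 (SE 0.19, limma adjusted p = 0.872).

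With all arrays of an age, Fbxo32 had sex differences near 0 at 8 and 78 weeks. At 8 weeks it was at 0.492, 0.71, 0.573, 0.509 and 0.480 in females and 0.569, 0.589, 0.516, 0.442 and 0.622 in males, and at 78 weeks at 0.773, 0.690, 0.568, 0.467 and 0.573 against 0.715, 0.628, 0.440, 0.598 and 0.708. The groups overlapped throughout, and the differences were 0.01, 0.10 and -0.01 (log2) at 8, 21 and 78 weeks. The adult difference was -0.31 after normexp and -0.18 with raw median signals. Without the 2 arrays at odds with their labels the 78-week difference was -0.17 (SE 0.17, limma adjusted p = 0.806). With all arrays the 95% intervals at 8, 21 and 78 weeks ran from -0.29 to 0.31, from -0.52 to 0.71 and from -0.40 to 0.38. A modest difference in either direction would thus not have been seen.

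Foxo1, the FoxO factor best measured here, was at 0.436, 0.422, 0.409, 0.451 and 0.470 in young females and 0.486, 0.435, 0.394, 0.459 and 0.529 in young males. In old rats it was at 0.534, 0.421, 0.474, 0.384 and 0.392 in females and 0.361, 0.384, 0.429, 0.406 and 0.392 in males, with 2 of 5 females above every male. Its differences of -0.07, -0.16 and 0.15 (log2) at 8, 21 and 78 weeks had limma adjusted p-values of 0.964, 0.771 and 0.858. Foxo3 differed by -0.09 at 8 weeks and -0.14 at 78 weeks, over groups in which 1 to 4 of 5 arrays measured it, and both turned positive after normexp (0.02 and 0.16).

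**Figure D2:**
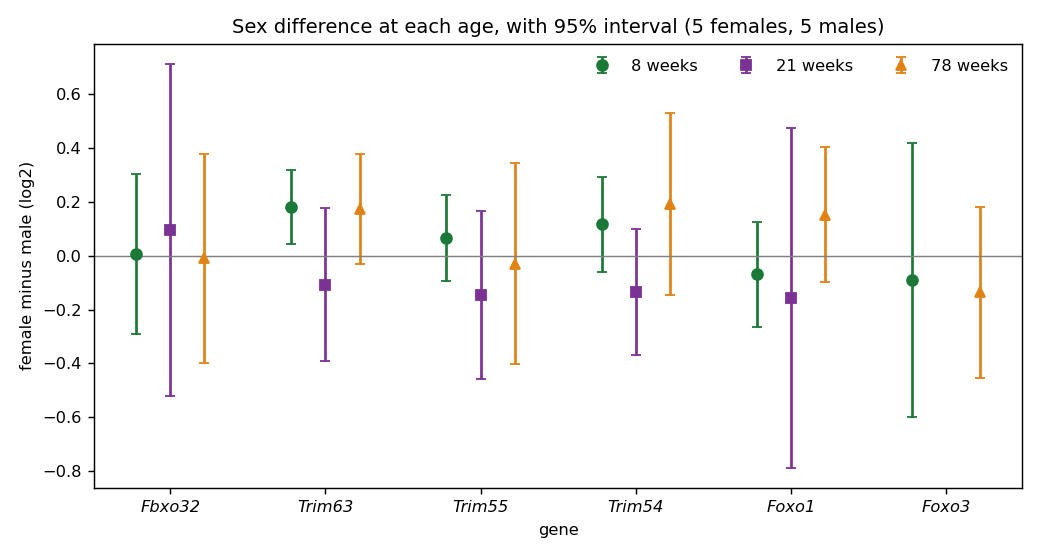
Female minus male difference (y axis, log2 of the table values) of each gene measured (x axis) at 8, 21 and 78 weeks, with bars for the 95% interval of the limma fit (5 females, 5 males). The interval lies above 0 only for Trim63 at 8 weeks, before adjustment over all rows, and Foxo3 at 21 weeks and Mstn are not drawn.

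Whether the sex difference itself changed with age was tested as an interaction over all 30 arrays. None of the 16 interactions of the 6 measured genes was called by limma (smallest adjusted p = 0.342, smallest unadjusted p = 0.0603), where 0%, 0.00244% and 0.00244% of all probes were called for 78 minus 8, 21 minus 8 and 78 minus 21 weeks. Of all probes 2.55, 17.3 and 13.3% had an unadjusted p under 0.05. For Trim63 (brighter probe) the change of the sex difference from 8 to 21 weeks was -0.25, but it was 0.34 after normexp. The dimmer Trim63 probe had 0.34 for 78 minus 21 weeks at an unadjusted p of 0.0470 (adjusted p = 0.373).

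The second question was how young and old hearts differed. With all 20 arrays of these ages, 3 of the 7 genes were called by limma: Trim63 fell and Trim54 and Foxo3 rose. This is to be read against 23.4% of all probes called in this comparison, 16.2% higher and 7.23% lower at 78 weeks, and a median difference of all probes of 0.12 (0.28 after normexp and 0.0036 with quantile normalization). Of the probes called, 69.1% were higher at 78 weeks, against 52.9% after normexp, 61.8% with raw median signals and 43.9% with quantile normalization. The share of all probes with such an order is given below only where the ages did not overlap. Partial counts of old rats beyond every young rat stand without it. With the slide as a block, where the estimate rests on the 4 arrays of slide 6, 0.476% of all probes and none of the 7 genes were called. The blocked differences were -0.39 (SE 0.12, limma adjusted p = 0.240) for Trim63, 0.44 (SE 0.19, limma adjusted p = 0.454) for Trim54 and 0.79 (SE 0.30, limma adjusted p = 0.394) for Foxo3.

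The fall of Trim63 appeared with both probes. On the brighter probe the 8-week arrays lay between 3.85 and 4.17 (median 4.06) and the 78-week arrays between 3.55 and 3.95 (median 3.69) on the log2 scale. Here 8 of 10 old rats lay below every young rat. The level fell by 0.30 (SE 0.05, fold 1.23, limma adjusted p = 5.28e-04), by 0.31 in females and 0.29 in males, and after normexp by 0.64 (limma adjusted p = 0.0930). On the dimmer probe the ages did not overlap, with 1.86 to 2.26 (median 2.15) at 8 weeks and 1.00 to 1.81 (median 1.55) at 78 weeks, as in 1.11% of all probes. There the level fell by 0.57 (SE 0.07, fold 1.48). On slide 6, which held both ages, the brighter probe fell by 0.28 in the female pair and 0.51 in the male pair, and the dimmer by 0.61 and 0.57.

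The probes of Trim63 thus gave unequal falls. The log2 ratio of the brighter over the dimmer probe within an array was 1.74 to 2.03 in young and 1.84 to 2.67 in old hearts, with 9 of 10 old above every young, and on slide 6 it rose by 0.33 in the female and 0.06 in the male pair. The part of probe position or transcript form in this was not tested. In samples of whole heart, fewer cells of a type and less RNA per cell cannot be told apart.

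Trim54 ran the other way. Its levels were 5.14 to 5.50 (median 5.37) at 8 weeks and 5.41 to 6.35 (median 5.67) at 78 weeks, and 9 of 10 old rats lay above every young rat. The rise was 0.40 (SE 0.09, fold 1.32, limma adjusted p = 0.00515), 0.44 in females and 0.36 in males, and 0.56 and 0.32 in the female and male pairs of slide 6. It was 0.42 with quantile normalization but 0.05 after normexp (limma adjusted p = 0.840). The 10 cardiomyocyte markers, among which 3 rose and 1 fell, had summed levels of 3269 to 4758 in young and 4131 to 5463 in old hearts, and their part in the rise was not tested.

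Fbxo32 did not pass the test, at 0.25 (SE 0.11, fold 1.19, limma adjusted p = 0.0949), with levels of -0.37 to 0.32 in young and -0.29 to 0.55 in old hearts. The difference was 0.24 in females and 0.26 in males, and 0.80 and 0.28 in the pairs of slide 6. Without the old female replicate 4 or the old male replicate 3 the limma adjusted p was 0.0446 or 0.0466. Trim55 differed by -0.11 on the brighter probe (limma adjusted p = 0.290) and by -0.04 on the dimmer, and on slide 6 both pairs were above 0 (0.18 and 0.09).

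Of the transcription factors, Foxo3 rose by 0.55 (SE 0.13, fold 1.46, limma adjusted p = 0.00762), from -4.06 to -2.84 at 8 weeks to -3.44 to -2.84 at 78 weeks. The ages overlapped, and the probe was well above background on 4 of 10 young and 7 of 10 old arrays, so some of these values lie at the background level of the arrays. After normexp the difference was 0.36 (limma adjusted p = 0.0930). Foxo1 differed by -0.01 (SE 0.07, limma adjusted p = 0.921), with 0.30 in the female and -0.47 in the male pair of slide 6. Its 95% interval ran from -0.17 to 0.14. The fibroblast markers, 7 of 7 well above background, had summed levels of 499 to 615 in young and 249 to 419 in old hearts without overlap, and their part in these differences was not tested.

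**Figure D3:**
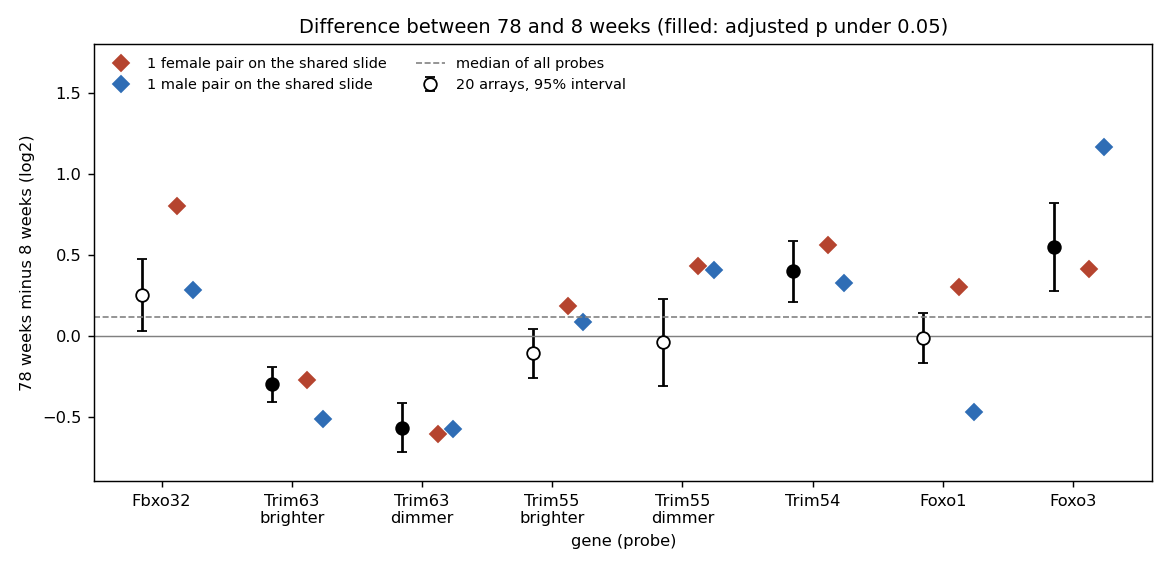
Difference between 78 and 8 weeks (y axis, log2) for each gene and probe (x axis). Circles give the fit over 20 arrays with its 95% interval, filled where the adjusted p is under 0.05, diamonds give the female and male pairs that shared slide 6, and the dashed line is the median of all probes (0.12). Trim63 lies below 0 and Trim54 and Foxo3 above it, in the fit and in both pairs.

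A ratio taken within an array does not depend on how the array was scaled. The log2 ratio of Trim54 over the brighter Trim63 probe lay between 1.20 and 1.55 at 8 weeks (mean 1.34), between 1.82 and 2.34 at 21 weeks and between 1.70 and 2.70 at 78 weeks (mean 2.04). All 10 old hearts lay above every young heart, as did the ratio of 9.08% of all probes over this Trim63 probe. The pair joins a gene that rose with one that fell, so its separation follows from that choice and supports nothing further. On slide 6 the old array exceeded the young one by 0.84 in both sexes. The ratio of Fbxo32 over Trim63 was -4.35 to -3.82 in young and -4.02 to -3.15 in old hearts, with 8 of 10 old above every young, and 1.08 and 0.79 higher in the female and male pairs of slide 6. A ratio shows an unequal change of both genes, and no test was run on it.

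**Figure D4:**
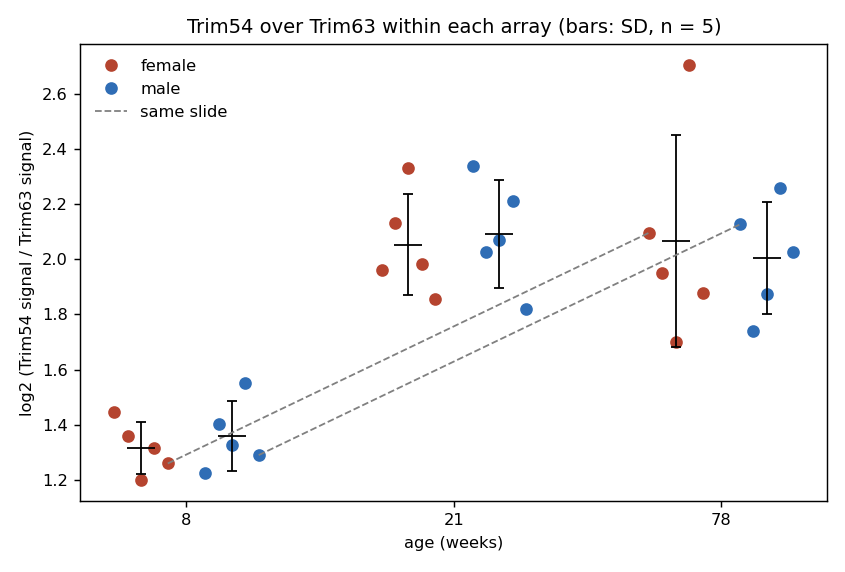
Log2 ratio of the Trim54 signal over the signal of the brighter Trim63 probe within each array (y axis) by age in weeks (x axis). Points are rats, black bars give the mean and SD of 5 rats, and dashed lines join the arrays of slide 6. The 8-week hearts sit between 1.20 and 1.55, below every 78-week heart.

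The genes around these ligases were then described in 7 lists of the pathway, of which 127 genes were measured on the 8- and 78-week arrays. Of these 127 genes, 42 were called by limma, 29 higher and 13 lower at 78 weeks, to be read against the 23.4% of all probes called (16.2% higher and 7.23% lower). Scaling by normexp or raw signal or quantile normalization turned the direction of 10 of the 42, and the slide as a block that of 2 (Ctsl and Fstl1), and these are marked where named.

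The ligase and proteasome lists had the fewest genes called, 2 of 20 and 3 of 16, both below the share of all probes. Among 20 E3 ligases of muscle, 1 rose, Skp1, the adaptor that holds F-box proteins such as Fbxo32 in the SCF complex (0.30, but -0.07 after normexp), and 1 fell, its scaffold Cul1 (-0.26). The list median was -0.08. Of 16 ubiquitin and proteasome genes, Sqstm1, the autophagy receptor p62, rose (0.53), the proteasome subunits Psma1 (-0.19) and Psmc4 (-0.14) fell, and the median was -0.04. With the slide as a block no gene of either list was called.

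Of 22 FoxO target genes 7 rose and 2 fell, with a median of 0.07. Pdk4, the kinase that shuts off pyruvate dehydrogenase, rose by 0.85, and Txnip, the thioredoxin-binding regulator of glucose uptake, rose by 0.91. Gabarapl1, an autophagosome protein, rose by 0.37, while Map1lc3b (0.26), the hydrogen peroxide-degrading Cat (0.31) and Cited2 (0.32) rose too but were below 0 after normexp, and Ctsl (0.64, well above background on 4 of 10 young and 6 of 10 old arrays) was -0.14 with the slide as a block. The autophagy kinase Ulk1 (-0.44) and the translation repressor Eif4ebp1 (-0.24) fell. With the slide as a block none of the 22 was called.

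Upstream of FoxO, 5 of 20 family members and regulators fell and 1 rose, with a median of -0.13. Igf2, a growth factor of fetal and juvenile tissue, fell most (-0.83, limma adjusted p = 1.22e-05), followed by the insulin receptor substrate Irs1 (-0.54, but 0.22 after normexp), the coactivator Ppargc1a (-0.42), Ywhaz (-0.33), a 14-3-3 protein of the kind that retains FoxO in the cytoplasm, and the AMP-activated kinase subunit Prkaa2 (-0.21). Another 14-3-3 gene, Ywhag, rose (0.19, but -0.16 after normexp). Without the 2 arrays at odds with their labels 3 genes fell instead of 5.

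In the myostatin pathway 5 of 20 genes rose and 2 fell, with a median of 0.03. Gdf11, the ligand most similar to myostatin, rose by 0.69 (SE 0.07, limma adjusted p = 2.50e-06). The activin subunit Inhba (0.35), the ligand-binding Fstl3 (0.39) and the inhibitory Smad7 (0.19, but -0.04 after normexp) rose. Mef2c was called too, but its probe was well above background on no 8-week and 2 of 10 78-week arrays, so no value is given. The protease Bmp1 (-0.29) and Fstl1 (-0.45, but 0.25 with the slide as a block) fell. Without the 2 arrays at odds with their labels 2 genes rose instead of 5.

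The list of genes that respond to glucocorticoids or fasting had the highest median, 0.36, against 0.12 for all probes. Of 15 genes measured, 7 rose and none fell. Angptl4, an inhibitor of lipoprotein lipase, rose by 2.25 (SE 0.36) and the metal-binding Mt2A by 1.72 (SE 0.14, limma adjusted p = 9.72e-08). Mt1a (0.94), the clock gene Per1 (1.12), the glucocorticoid receptor cochaperone Fkbp5 (0.75) and Zbtb16 (0.65) were among the others that rose. With the slide as a block 2 of the 15 were called. The time of day, feeding state and hormone levels of the rats were not analysed here.

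Among 14 sarcomere partners of the MuRF proteins 7 rose and 1 fell, with a median of 0.25. The thin filament anchoring gene Nrap (0.55), the stretch-responsive Ankrd1 (0.62), the M-band gene Myom2 (0.48) and Ankrd2 (1.27, well above background on 2 of 10 young and 6 of 10 old arrays) rose. Csrp3 (0.34) and Tnnt2 (0.24) rose too but were below 0 after normexp, and the alpha myosin heavy chain Myh6 (0.28) was at -0.08 after normexp and -0.01 with quantile normalization. The creatine kinase Ckm, a known MuRF substrate, fell (-0.21). Without the 2 arrays at odds with their labels 5 rose and none fell, and with the slide as a block 1 of the 14 was called.

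Between the sexes no gene of the 7 lists was called by limma at any age. At 8, 21 and 78 weeks 14 of 130, 28 of 129 and 6 of 128 had an unadjusted p under 0.05. This is to be read against 5.74, 15.9 and 5.65% of all rows. At 21 weeks the median sex difference of all rows was itself -0.14, and it was -0.02 with quantile normalization. The gene with the smallest p of each list is given as female minus male (log2). At 8 weeks these were, for 6 of the lists, the FoxO target Txnip (0.87, limma adjusted p = 0.148), Ppargc1a (0.31), Fst, the secreted antagonist follistatin (-0.29), the F-box gene Fbxl22 (-0.20), Nrap (0.19) and the autophagy receptor gene Nbr1 (0.14). At 21 weeks they were the insulin receptor substrate Irs2 (0.93, limma adjusted p = 0.139), the ligase gene Cblb (0.61), the growth factor gene Igf1 (-0.59), Errfi1 (0.49), Smad7 (0.48), Ube4b (0.46) and Ankrd1 (-0.36). At 78 weeks they were Fst (-0.66), the stress-induced Sesn3 (-0.51), Igf1 (-0.48), the serum response factor gene Srf (-0.47), Klf9 (0.42), the p53 ligase gene Mdm2 (0.17) and the ubiquitin-conjugating Ube2d1 (0.16), each at a limma adjusted p of 0.856. None of these passed the test, and each is named only because its p was the smallest of its list at that age.

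**Figure D5:**
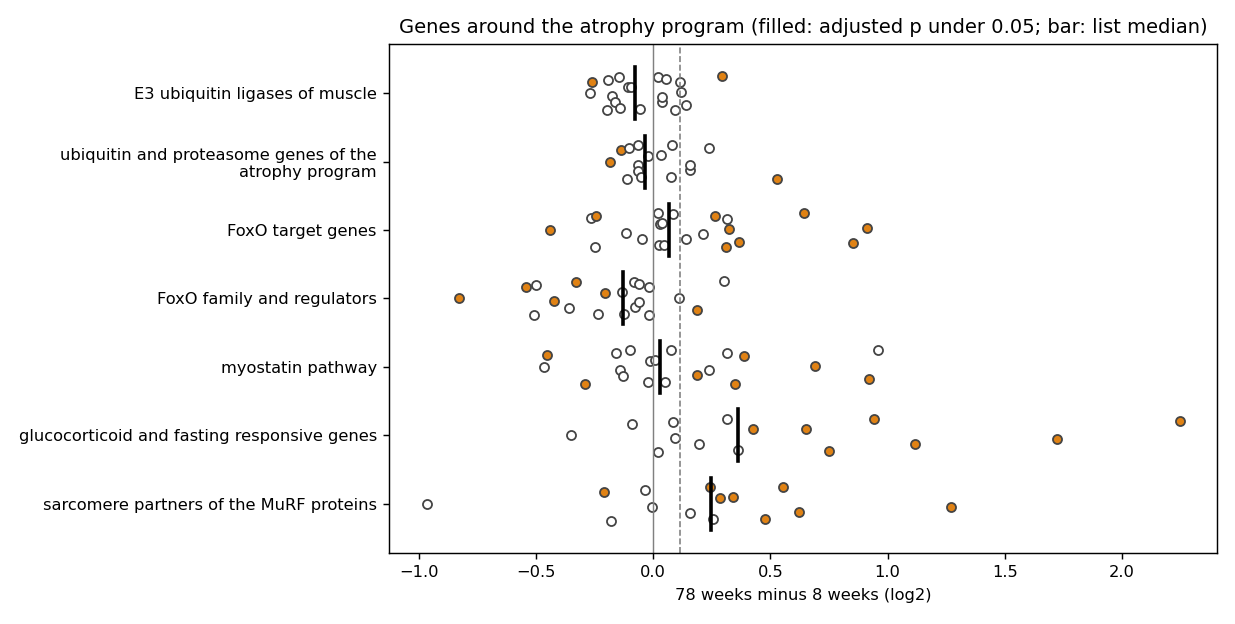
Difference between 78 and 8 weeks (x axis, log2) of every gene measured in 7 lists (rows). Each circle is 1 gene, filled where the limma adjusted p is under 0.05, black bars are list medians and the dashed line is the median of all probes (0.12). The medians run from -0.13 for FoxO family and regulators to 0.36 for glucocorticoid and fasting responsive genes.

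Finally, the genes whose levels ran most like those of the ligases and factors were listed, by the Pearson r over 30 arrays of deviations from the group means, among 10646 probes. For Fbxo32 this was the basement membrane collagen gene Col4a4 (r = 0.91), for Trim63 RGD1306001 (0.84) and LOC682888 (0.83), for Trim54 Rilpl1 (0.89) and the mitochondrial elongation factor Tufm (0.89), for Trim55 Nhp2 (0.85), and for Foxo1 the autophagosome transport gene Fyco1 (0.89) and Ppargc1a (0.83). Over the 20 arrays of 8 and 78 weeks, Rilpl1 (0.93) and Tufm (0.92) were again among the 5 most like Trim54 and LOC682888 (0.82) among those most like Trim63. Col4a4, RGD1306001, Nhp2, Fyco1 and Ppargc1a were not among the 5 of their gene in that smaller set. The arrays share slides and a scaling factor, and the values are descriptions without a test.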

How the data were processed

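Whole-heart RNA of 30 rats was measured on Agilent rat arrays in 1 color. Per the file headers, the authors quantified the scanned slides with Agilent Feature Extraction (version 9.5), and the deposited scanner files hold the intensity of each spot as a background-subtracted processed signal. The authors divided these by the 75th percentile of the array and deposited a table per age, whose values are linear ratios to that percentile. Of the table rows, 98.4% were traced to 1 probe or the mean of several within 0.002 log2. Table and scanner values of an array differ by a constant, since the percentile was taken over different sets of spots. At 21 weeks the numbers on the male columns do not match those of the samples, so these columns were tied to the group only.

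Sex differences at each age were tested on log2 table values of 5 females and 5 males, and 78 against 8 weeks and the interactions on log2 processed signals over the 75th percentile of all non-control probes, with sex and age as terms, in limma 3.58.1 (R 4.3.3) with Benjamini-Hochberg adjustment over all rows or probes at 0.05. The fits were tested on simulated data. The methods' test between both sexes (proc glm, which for 2 groups is an equal-variance t-test), normexp (offset 50) on mean signals, raw median signals, quantile normalization, filters on dim probes, slide and replicate blocks, leaving out each rat, and leaving out the 2 arrays at odds with their labels were alternatives, the last chosen with earlier results known. At 78 weeks females and males of equal number were also taken as pairs. Their arrays lay side by side on a slide, and no pairing of the rats themselves is described. The correlations of deviations over table rows of equal numbers were 0.20, 0.34, 0.25, 0.25 and 0.21 and those of unequal numbers at most 0.16. At the other ages not every such pair exceeded 0.1. Blocks and left-out arrays in the tests of sex used table rows rebuilt from the scanner files. The genes and all lists were chosen with earlier results of these data known. By rule, the genes named from each list are the 4 called with the smallest p or, with none called, the 1 with the smallest p; the other called genes of a list were named after their values were seen, and the single-probe fits of Trim63 and Trim55 were added after seeing the data. A gene that this rule names is not reported here. Likeness was ranked by Pearson r. Probes that no array of a group measured well above background have no fold, and the brighter probe stood for a gene with 2. The number of arrays limits the precision.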

Additional observations from a re-analysis of the deposited data

Results flagged for a closer look

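In 3 of 42 groups of 5 rats the highest value lay far from the other 4, by Dixon's criterion, which chance alone meets in about 1 of 20 groups. Mstn in the 8-week female replicate 2 had a normalized value of 0.0465, against 0.0125 to 0.017 in the others. Mstn in the 21-week female replicate 3 had 0.0345, against 0.0131 to 0.0164. Foxo3 in 1 of the 21-week males, whose column is not tied to a replicate number, had 0.1252, against 0.0284 to 0.0414. On the scanner scale the array of male replicate 2 had Foxo3 at -2.18, against -4.33 to -3.73 in the other males. Its processed signal was 8.16, on the array with the lowest 75th percentile (39.9). All 3 flagged values belong to spots that were not well above background.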

How the results depend on the processing

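No sex difference or interaction of the 7 genes was called at an adjusted p under 0.05 under any alternative. Rows called for sex at 8 weeks (28) became 17 after normexp, 15 with the slide as a block and 13 to 32 leaving out single rats, those at 21 weeks (14) became 1 after normexp, 22 with raw signals, 30 with a filter on dim probes and 8 to 18 leaving out single rats, and those at 78 weeks (0) became 9 without the 2 arrays at odds with their labels and 0 to 1 leaving out single rats. The share higher in females among those called moved from 32.1% to between 42.3 and 47.1% at 8 weeks and from 42.9% to 57.9% with quantile normalization at 21 weeks. With the replicate number as a block 5 rows were called at 8 and 5 at 21 weeks, where not every pair of equal numbers correlated above 0.1 (-0.24, 0.12, -0.25, 0.02 and 0.16 at 8 weeks and 0.53, 0.36, 0.0069, -0.16 and 0.24 at 21 weeks). At 78 weeks the block changed no call. The slide and replicate blocks for sex and the fits for sex leaving out rats used rows rebuilt from the scanner files, a setting chosen after seeing the data that by itself gave 29, 14 and 0 rows called at 8, 21 and 78 weeks and changed no sign. Probes called for 78 against 8 weeks (9613) became 970 after normexp, 6116 with raw signals, 5560 with quantile normalization, 5962 with the dim filter, 195 with the slide block, 839 in females only, 1608 in males only, 4602 without the 2 arrays, and 5363 to 12028 leaving out single rats. Leaving out the young female replicate 1 (5491), young male replicate 2 (5521) or young male replicate 4 (5363) or the old male replicate 3 (6406) lowered it most. The 3 genes called became 0 after normexp, with the slide block, in females only and in males only, and 3 to 4 leaving out single rats. For these 4 settings the cause was not tested, and the single-sex fits also had fewer arrays. Trim63, Trim54 and Foxo3 kept their direction in all 4 settings. Probes called for the interactions (0, 1 and 1 for 78 minus 8, 21 minus 8 and 78 minus 21 weeks) became 2, 4 and 1 with quantile normalization, 0 and 0 for the latter contrasts after normexp, and 2 and 2 without the 2 arrays.

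Signs of differences that were not called turned in these cases. After normexp the sex differences were 0.0238 for Foxo3 at 8 weeks, -0.31, 0.21, 0.39 and 0.0306 for Fbxo32, Trim63, Trim54 and Trim55 at 21 weeks, and -0.11, -0.15 and 0.16 for Trim63, Trim54 and Foxo3 at 78 weeks, and 78 against 8 weeks was 0.0358 for Foxo1. Interactions after normexp were -0.38 and 0.0607 for Trim54 and Foxo3 (78 minus 8), -0.19, 0.34, 0.38 and 0.32 for Fbxo32, Trim63, Trim54 and Trim55 (21 minus 8), and 0.0779, -0.79, -0.76 and -0.79 for the same genes (78 minus 21). With raw signals Trim55 and Foxo3 at 8 weeks were -0.00034 and 0.0349, Fbxo32 at 21 weeks -0.18 and Foxo1 with age 0.0372. With quantile normalization Foxo3 at 8 weeks was 0.00017, Trim54 at 21 weeks 0.0272, Fbxo32 at 78 weeks 0.0104 and the 78 minus 21 interaction of Trim55 -0.0191. Trim55 was 0.0765 for sex at 78 weeks with its dimmer probe and 0.13 with age under the slide block, and Foxo1 with age was 0.10 in females only. Without the 2 arrays the interactions were 0.0275 for Trim63 (78 minus 8) and -0.0037 for Trim55 (78 minus 21). Leaving out single rats gave sex differences from -0.0881 to 0.0546, -0.0537 to 0.288 and -0.126 to 0.0838 for Fbxo32 at 8, 21 and 78 weeks, -0.20 to 0.12 for Foxo3 at 8 weeks, -0.367 to 0.0423 for Foxo1 at 21 weeks and -0.144 to 0.0640 for Trim55 at 78 weeks, and -0.0549 to 0.0196 for Foxo1 with age. All other alternatives kept the sign. Signal over background limits Foxo3 and Mstn, and the number of rats the rest.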
